A study of Homo sapiens with 16 samples.

Results

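This comparison sets the ribosome-nascent chain complex (RNC) library labelled H1299 with overexpressed FLII against the RNC library labelled HBE NC, the control of the HBE line. RNC RNA is the messenger RNA that is pelleted together with ribosomes and the chains they are making, so it samples what a cell was translating. H1299 is a lung carcinoma line and HBE is a bronchial epithelial line. The series holds 16 libraries of polyA RNA, with 1 library in each group and no replicates, from whole-cell mRNA, RNC, cytosol and nucleus. Per the labels, H1299 cells received a Flag-tagged FLII plasmid or the empty vector by lipid transfection, HBE cells were made to carry the NC control or, by lentivirus, a stable hairpin RNA that lowers FLII, and all cells were at passage 15 to 18. What the NC control is made of is not given in the sources used here. For RNC RNA, both cultures were treated with cycloheximide before lysis and centrifugation through sucrose. The 2 libraries, of 16, were compared because both resemble HBE, whatever their labels say. The library labelled H1299 FLII held 38514467 reads and that labelled HBE NC held 34245129 reads, against 5914489 to 9259569 reads in the mRNA, cytosol and nuclear libraries.

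Of 23709 genes, 9706 were kept. These had 100 or more reads summed over both RNC libraries and 2 CPM or more (counts scaled to a common library total) in both HBE cytosol libraries, labelled knockdown and NC. Summed reads alone left 11727 genes. At the edges of the rule, C3orf14 had 100 summed reads and a log2 fold of -0.17, while C18orf32 had 99 reads and -0.03 and was left out. CD14 had 2.03 CPM in the lower of the HBE cytosol libraries and a log2 fold of 1.67, while PEX7 had 1.97 CPM and 0.12 and was left out. Every fold below is the library labelled H1299 FLII over that labelled HBE NC, on read counts scaled by TMM (a scaling that takes most genes as level) with 0.5 reads added, unless another is named. Under that scaling a gene with the same RPKM (reads scaled to transcript length and library total) in both libraries has a log2 fold of 0.58. Called genes are those with an absolute log2 fold of 1 or more and an exact 95% interval that leaves out 0. With 1 library in each group there is no test, no p-value and no replicate check: the intervals cover counting error, and the values compare these libraries and not the conditions.

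FLII is an actin-binding protein of the gelsolin family with a leucine-rich repeat region, and it also binds coactivators of nuclear receptors. The plasmid should raise it and the hairpin should lower it, so FLII checks the labels. FLII had 5.61 RPKM (941 reads) in the RNC library labelled H1299 FLII, the lowest value of all 16 libraries, and 36.5 RPKM (5449 reads) in that labelled HBE NC. Its log2 fold was -2.12, with an interval of -2.22 to -2.02. The label of the first library therefore goes against its FLII level. In the cytosol libraries FLII had 210.0 RPKM in H1299 with the FLII plasmid and 70.1 RPKM with the vector. HBE cytosol held 8.23 RPKM in the knockdown and 62.6 RPKM in NC. The other RNC libraries held 89.2 RPKM (labelled H1299 vector) and 30.0 RPKM (labelled HBE knockdown).

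KRT5, a keratin of basal epithelial cells, had 107 RPKM in the library labelled H1299 FLII and 90.9 RPKM in that labelled HBE NC. HBE cytosol held 412 RPKM of it in the knockdown and in NC, and H1299 vector cytosol held 0.469 RPKM. Both libraries were picked for their HBE transcripts, so this restates the choice. The RNC library labelled H1299 vector had no KRT5 read, and that labelled HBE knockdown had 1. The directions from here on rest on a library whose FLII level goes against its label, and which culture it came from was not tested.

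**Figure D1:**
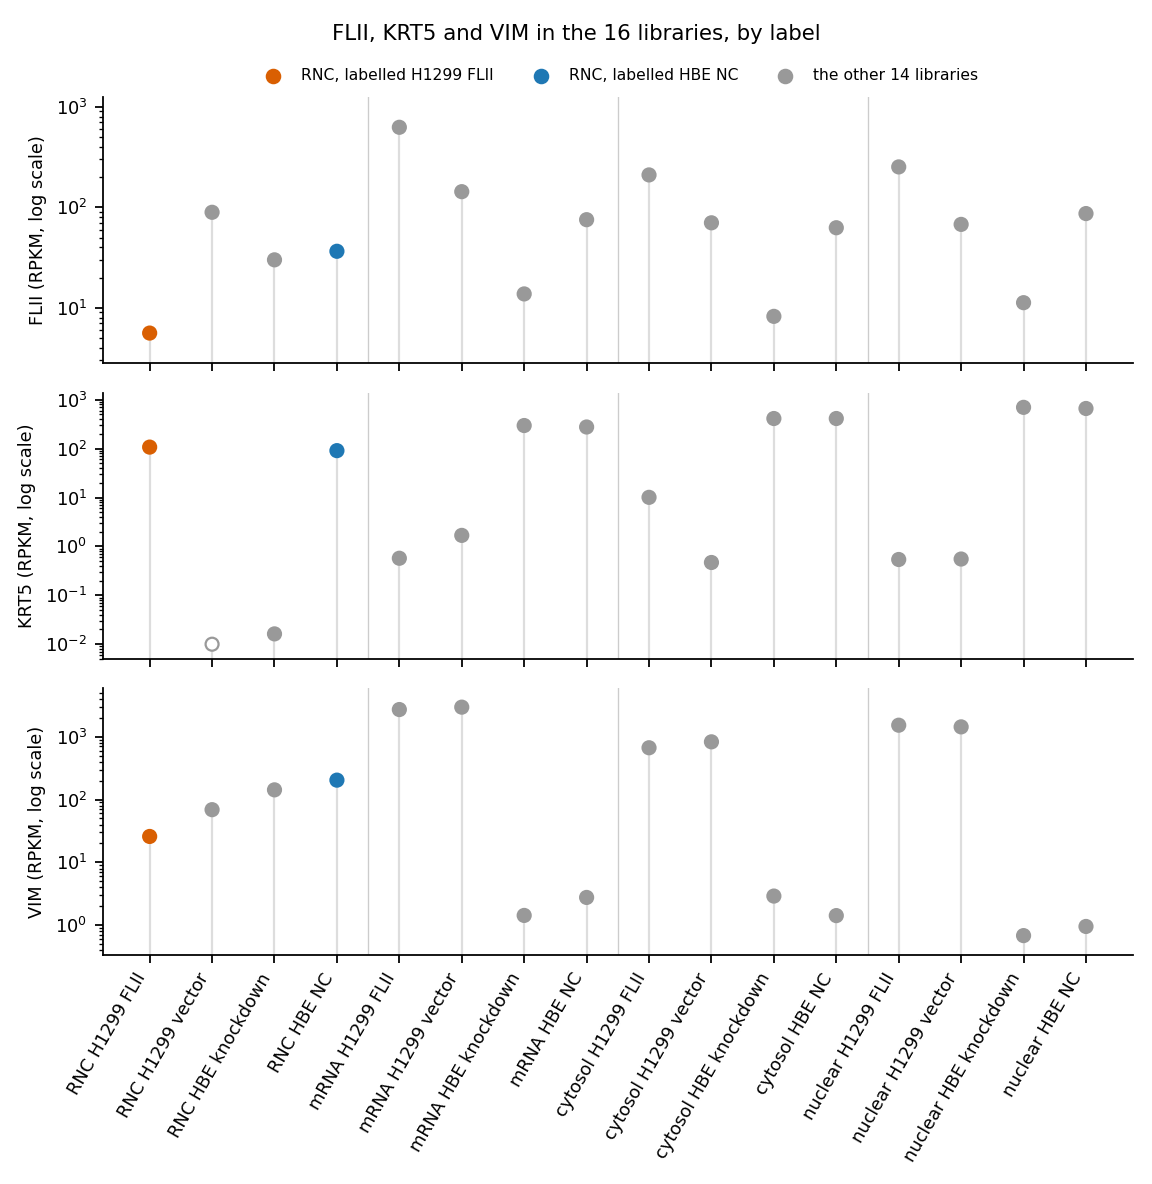
FLII, KRT5 and VIM in RPKM (log scale) in each of the 16 libraries, placed by label, with the RNC libraries labelled H1299 FLII and HBE NC in colour and the others in grey. The open marker is a value of 0 drawn at 0.01. FLII is lowest in the RNC library labelled H1299 FLII, at 5.61 RPKM, and KRT5 is 107 RPKM there and 90.9 RPKM in that labelled HBE NC.

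The FLII difference was next set against the cytosol of HBE NC cells, with the median gene at 0. FLII was at -2.98 on the log2 CPM scale in the library labelled H1299 FLII, and 18 of the 9706 genes (0.185%) were lower still. In the library labelled HBE NC it was at -0.69, and 2534 genes (26.1%) were lower. By the fold between the 2 RNC libraries FLII stood out less: 198 genes (2.04%) had a lower one. Those 198 genes had a median of -0.01 over HBE NC cytosol in the library labelled H1299 FLII, and 4 of them were 4-fold or more below the cytosol there. The same 198 had a median of 2.49 in the library labelled HBE NC, and 188 were 2-fold or more above the cytosol there. So the low fold of FLII came with a low level in the library labelled H1299 FLII, while the low folds of 188 of the other 198 genes came with a high level in that labelled HBE NC. TUBB4A, a tubulin, and DOK2, an adaptor of tyrosine kinase signalling, were chosen after their values were seen. Both lay below FLII in the library labelled H1299 FLII and also had a lower fold than FLII. TUBB4A was at -4.43 over cytosol in the library labelled H1299 FLII and at -1.30 in that labelled HBE NC. DOK2 was at -4.31 in the library labelled H1299 FLII and at -1.48 in that labelled HBE NC.

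**Figure D2:**
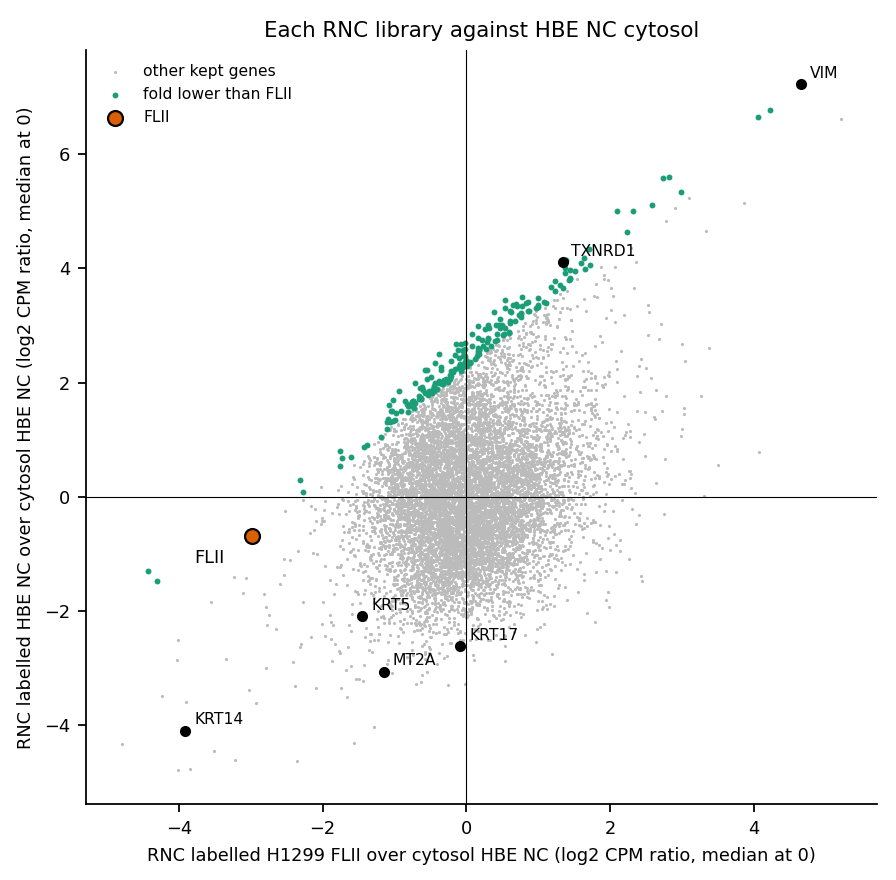
Each kept gene as its log2 CPM ratio to HBE NC cytosol (median at 0), with the RNC library labelled H1299 FLII on the horizontal axis and that labelled HBE NC on the vertical axis; green points are the 198 genes with a lower fold than FLII. FLII lies at -2.98 and -0.69, away from most of the green points, whose medians are -0.01 and 2.49.

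Beyond FLII, the libraries differed widely. Of 9706 genes, 2459 (25.3%) were called higher and 1845 (19%) lower in the library labelled H1299 FLII, 44.3% in all. At 4-fold or more, 487 (5.02%) were higher and 296 (3.05%) lower. The median log2 fold was 0.21, and the quartiles were -0.74 and 1.01. The split of calls depends on the scaling. By total counts 1032 were higher and 3190 lower, by DESeq2's median of ratios 2861 were higher and 1569 lower, and by TMM over the kept genes 1654 were higher and 2512 lower. With the genes typical of HBE (described below) set to a median of 0, an alternative chosen after seeing the data, 189 were higher and 5668 lower. A list below is therefore read against the median and the shares of all kept genes. Each library's most abundant genes encode the translation and glycolysis machinery: RPS2 took 1.88% and GAPDH 1.5% of the reads labelled H1299 FLII, and RPLP0 took 2.1% of those labelled HBE NC.

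The folds followed base composition and length. GC content, taken from GENCODE transcripts for 9346 of the kept genes, had a Spearman correlation of 0.587 with the log2 fold across genes, and length one of -0.401 across 9706. Genes share their library and are no replicates, so these are descriptions. Genes of up to 40% GC had a median log2 fold of -0.93, with 1.71% called higher and 47.5% lower. Genes over 65% GC had a median of 1.05, with 52.5% called higher and 4.52% lower. Transcripts of up to 1000 bases had a median of 0.70 and those over 8000 bases one of -1.26. FLII, at 59.9% GC and 4357 bases, sits in a GC class whose median was 0.88, so its low fold goes against the GC trend. Its length class, 4000 to 8000 bases, had a median of -0.475, so by length its sign goes with the trend. With the GC trend removed FLII was at -2.84 and 11 of 9346 genes (0.118%) had a lower fold. With GC and length trends removed it was at -2.64 and 13 genes (0.139%) had a lower fold. For some of the lists the median GC content is given beside the fold, and for the others it is not. Removal of the GC trend was among the 13 other ways of processing under which the side of each list was read, as described below. How much of a list's median GC content accounts for was not tested.

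**Figure D3:**
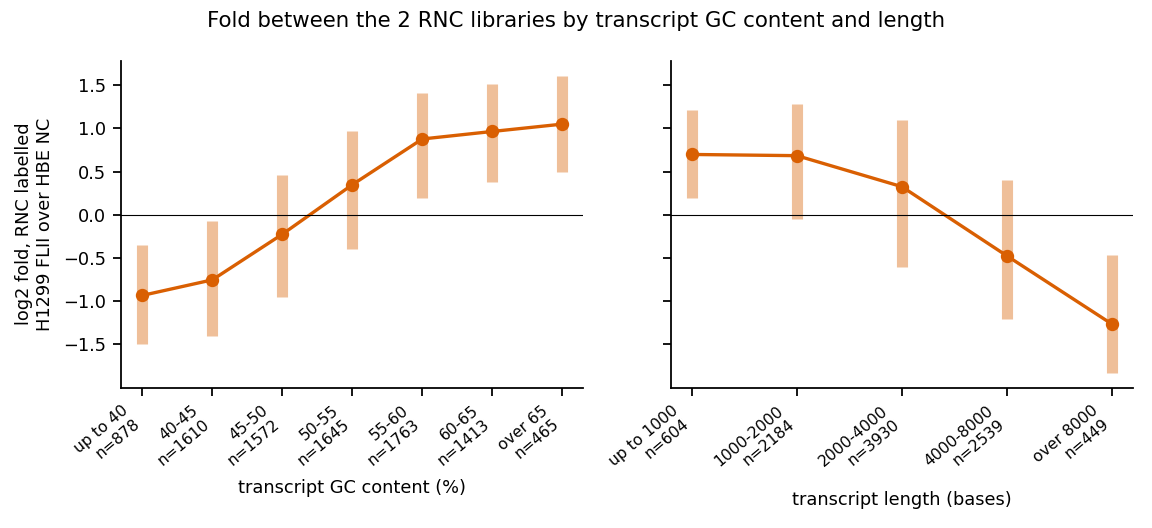
Median log2 fold (points) and quartiles (bars) of the library labelled H1299 FLII over that labelled HBE NC, for kept genes in classes of transcript GC content (left) and length (right). The median runs from -0.93 at up to 40% GC to 1.05 above 65% GC, and from 0.70 at up to 1000 bases to -1.26 above 8000 bases.

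The library labelled H1299 FLII also lay closer to HBE cytosol. Over HBE knockdown cytosol its log2 ratios had an SD of 0.735 across the 9706 genes, and 14.8% of genes were 2-fold or more from the median. Over HBE NC cytosol the SD was 0.769 and the share 16.6%. The library labelled HBE NC had an SD of 1.18 and a share of 38.6% over knockdown cytosol, and 1.17 and 37.3% over NC cytosol. The cytosol libraries themselves, knockdown over NC, had an SD of 0.284 and 0.484% of genes 2-fold apart. The ratio to NC cytosol had a Spearman correlation with GC content of 0.219 in the library labelled H1299 FLII and of -0.478 in that labelled HBE NC (n = 9346 genes). Set against the cytosol, GC-rich transcripts were thus low in the library labelled HBE NC and, to a smaller extent, high in that labelled H1299 FLII.

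Genes typical of each line were read next. Of 199 genes typical of HBE, chosen from mRNA and nuclear libraries at 50 times or more above H1299, 184 were kept. Their median was 92.1% of the HBE NC cytosol level in the library labelled H1299 FLII and 43.6% in that labelled HBE NC. Their median log2 fold was 1.53 (quartiles 0.83 and 2.18), with 127 called higher and 4 lower. Of 180 genes typical of H1299, 159 had 5 CPM or more in H1299 vector cytosol, and these were at a median of 0.672% of the H1299 vector cytosol level in the library labelled H1299 FLII and at 3.31% in that labelled HBE NC. The 7 that passed the filter on HBE cytosol had a median log2 fold of -0.14, with 2 called higher and 3 lower. Without that filter, the 59 with 100 or more reads summed over both libraries had a median log2 fold of -2.42 (quartiles -2.62 and -2.04). Genes with such folds reach the summed reads mainly through the library labelled HBE NC, so the filter has a part in this value.

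Markers of the lines and of other cells moved with the comparison. The 8 basal epithelial markers other than FLII summed to 4650 CPM in the library labelled H1299 FLII and 1360 CPM in that labelled HBE NC, against 8160 and 7830 CPM in HBE knockdown and NC cytosol. Most of each RNC sum is KRT17, with 153930 reads in the library labelled H1299 FLII and 31276 in that labelled HBE NC. KRT17 (2.71), KRT6A (2.45), LAMB3 (1.79) and ITGB4 (1.41) were called higher. KRT5 (0.82), TP63 (0.42), KRT14 (0.36) and CDH1 (-0.91) were not called. Both libraries were picked for their HBE transcripts. The 5 H1299 markers summed to 58.1 CPM in the library labelled H1299 FLII and 456 CPM in that labelled HBE NC, against 8.66 and 4.40 CPM in HBE knockdown and NC cytosol. Most of this is VIM, the intermediate filament of mesenchymal cells, which had 25.9 RPKM in the library labelled H1299 FLII and 203.5 RPKM in that labelled HBE NC. CTAG2, a cancer-testis antigen, is another H1299 marker. It had 0.0523 RPKM (2 reads) in the library labelled H1299 FLII and 0.529 RPKM (18 reads) in that labelled HBE NC. The RNC library labelled H1299 vector had 517 RPKM of CTAG2 and 69.0 RPKM of VIM, so the library labelled HBE NC exceeded that H1299-like library in VIM while its CTAG2 was near 0. The 35 cancer-testis genes summed to 3.61 CPM in the library labelled H1299 FLII and 20.7 CPM in that labelled HBE NC, and none was kept.

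Markers of other cell types differed among themselves. The 5 fibroblast markers summed to 14.4 CPM in the library labelled H1299 FLII and 63.2 CPM in that labelled HBE NC, nearly all from COL1A1, a collagen, at 2.42 RPKM in the library labelled H1299 FLII and 10.6 RPKM in that labelled HBE NC. COL1A2 and LUM had no read in either. The 3 endothelial markers summed to 8.75 CPM in the library labelled H1299 FLII and 3.77 CPM in that labelled HBE NC. HBE knockdown and NC cytosol held 7.74 and 8.28 CPM of them, and H1299 vector cytosol 1.40 CPM. PECAM1 had a log2 fold of 2.07 and CDH5 one of 1.34. Of the longer endothelial list of 6 genes, TEK had no read in either RNC library. Reads in the libraries labelled H1299 FLII and HBE NC were 0 and 1 for KDR and 1 and 3 for CLDN5. The 5 blood markers had 1 read in the library labelled H1299 FLII and 1 in that labelled HBE NC, with 4 of 5 at 0 in each. Of the longer blood list of 7 genes, CD14, a monocyte receptor, had 8.56 RPKM (543 reads) in the library labelled H1299 FLII and 4.00 RPKM (226 reads) in that labelled HBE NC. It was the 1 blood gene kept, and HBA2 had 1 read in the library labelled H1299 FLII and 6 in that labelled HBE NC. In bulk RNA, more cells of a type and more RNA per cell cannot be told apart.

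Some genes were seen in RNC libraries and hardly elsewhere in the series. These 173 genes had 100 or more reads summed over the compared libraries and under 2 CPM in each of the 12 mRNA, cytosol and nuclear libraries. Many reached the summed reads mainly through the library labelled HBE NC, so their values are a description in which the filter has a part. Together they held 403 CPM in the library labelled H1299 FLII and 2911 CPM in that labelled HBE NC. ALDH1A1, a retinaldehyde dehydrogenase, had 87.3 CPM in the library labelled H1299 FLII and 990.5 CPM in that labelled HBE NC. CPLX2, a regulator of vesicle fusion, had 52.1 CPM in the library labelled H1299 FLII and 511 CPM in that labelled HBE NC. HNF4A, a transcription factor of liver and gut, had 4.96 CPM in the library labelled H1299 FLII and 33.4 CPM in that labelled HBE NC, and FOXA2, a factor of endoderm, had 2.96 CPM in the library labelled H1299 FLII and 26.3 CPM in that labelled HBE NC.

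The ratio lay in a narrow band for the middle of these genes and varied more at the ends. Choosing the 42 genes with 10 CPM or more in the library labelled HBE NC fixes in part that the others are lower. For these genes the library labelled H1299 FLII held a median of 11.5% of that level (quartiles 9.76% and 12.8%). The RNC library labelled H1299 vector held 9.21% (8.32% and 11.3%), and that labelled HBE knockdown 51.2%, with an upper quartile of 53.3%. Single log2 folds of the library labelled H1299 FLII over that labelled HBE NC ran from -3.56 to -0.11. These genes were not assigned to a cell type, and their source was not tested. CYP24A1, which inactivates vitamin D, was listed at 0 in both HBE cytosol libraries and followed the same order: 8.36 RPKM in the library labelled H1299 FLII and 72.8 RPKM in that labelled HBE NC, with 6.76 RPKM in that labelled H1299 vector and 38.0 RPKM in that labelled HBE knockdown.

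**Figure D4:**
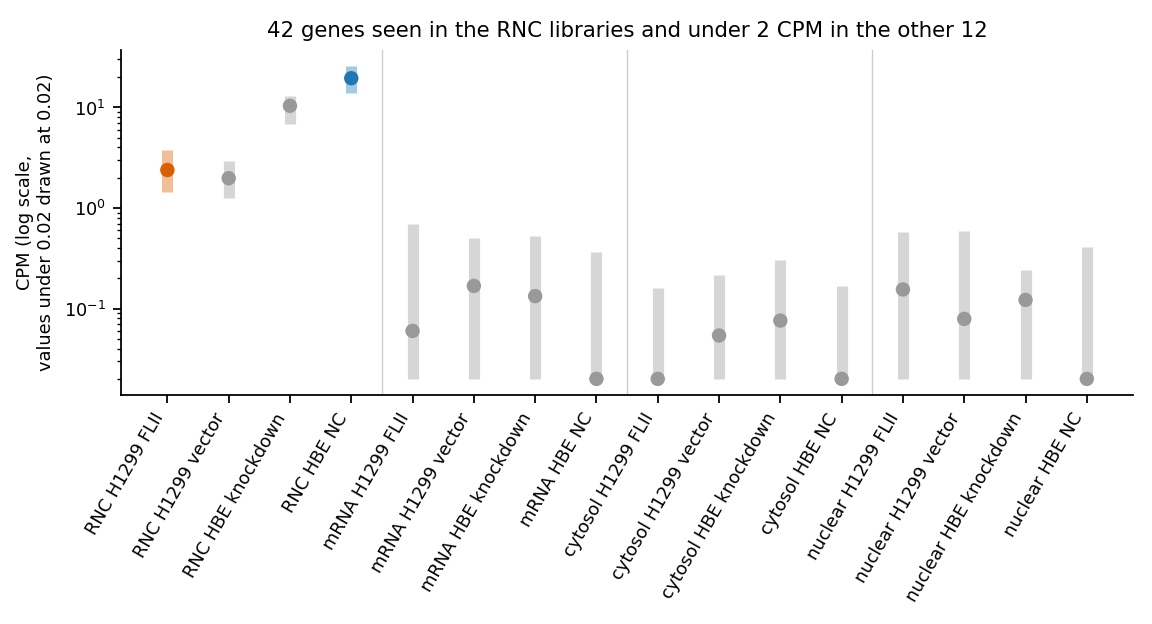
Median CPM (points) and quartiles (bars) on a log scale of the 42 genes with under 2 CPM in the 12 other libraries and 10 CPM or more in the RNC library labelled HBE NC, by library; values under 0.02 are drawn at 0.02. The medians are 2.39 CPM in the RNC library labelled H1299 FLII, 1.98 CPM in that labelled H1299 vector, 10.4 CPM in that labelled HBE knockdown and 19.5 CPM in that labelled HBE NC.

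The genes named as higher, leaving out those at 8 times or more above HBE in H1299, had 55.6% to 67.2% GC where a value was at hand, against a median of 51.8% for all kept genes, and included secreted and differentiation genes. CTF1, a cytokine of the interleukin-6 family, had 10.1 RPKM in the library labelled H1299 FLII and 0.807 RPKM in that labelled HBE NC, a log2 fold of 4.20 (3.79 to 4.69). BPIFB1, a secreted airway defence protein, had 4.63 RPKM in the library labelled H1299 FLII and 0.372 RPKM in that labelled HBE NC, a log2 fold of 4.18. METRNL, a secreted growth factor-like protein, had 168.5 RPKM in the library labelled H1299 FLII and 17.0 RPKM in that labelled HBE NC, a log2 fold of 3.89. Each of these had a level in HBE cytosol between its levels in the 2 RNC libraries, as with METRNL at 94.9 RPKM in the knockdown and 74.3 RPKM in NC. ATOH8, a basic helix-loop-helix transcription factor, had 26.7 RPKM in the library labelled H1299 FLII and 2.51 RPKM in that labelled HBE NC. RHOV, a small GTPase, had 359.5 RPKM in the library labelled H1299 FLII and 50.7 RPKM in that labelled HBE NC. ASS1, which makes argininosuccinate in the urea cycle and arginine synthesis, had 300.1 RPKM in the library labelled H1299 FLII and 46.9 RPKM in that labelled HBE NC. ASS1 was at 202 and 195 RPKM in HBE knockdown and NC cytosol, so the library labelled H1299 FLII was above the cytosol and that labelled HBE NC below it. The others named by the same rule were RBBP8NL (4.12), PLEKHB1 (4.09), PODNL1 (3.94), HSH2D (3.84), ALDH3B2 (3.53), the circadian factor DBP (3.49), the mucin MUC4 (3.48), the corepressor TLE2 (3.40) and ANKRD65 (3.34), with log2 folds in parentheses.

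The genes named as lower had 38.6% to 52.2% GC and were 2481 bases or longer. LGR4, a receptor for R-spondins in Wnt signalling, had 0.896 RPKM in the library labelled H1299 FLII and 9.06 RPKM in that labelled HBE NC, a log2 fold of -2.76 (-2.99 to -2.54). CRIM1, a transmembrane protein that binds growth factors, had 2.04 RPKM in the library labelled H1299 FLII and 20.3 RPKM in that labelled HBE NC. ASPH, an aspartate hydroxylase of the endoplasmic reticulum, had 4.67 RPKM in the library labelled H1299 FLII and 44.5 RPKM in that labelled HBE NC. HBE cytosol held 0.608 and 0.870 RPKM of LGR4 in the knockdown and in NC, near the library labelled H1299 FLII and well under that labelled HBE NC. SPTBN1, a spectrin of the membrane skeleton, had 3.58 RPKM in the library labelled H1299 FLII and 28.7 RPKM in that labelled HBE NC, against 0.282 and 0.298 RPKM in HBE knockdown and NC cytosol. KPNB1, the importin that carries proteins into the nucleus, had 4.30 RPKM in the library labelled H1299 FLII and 37.0 RPKM in that labelled HBE NC, against 6.83 and 6.60 RPKM in knockdown and NC cytosol. MALAT1, a long noncoding RNA of the nucleus, had 2.27 RPKM in the library labelled H1299 FLII and 20.6 RPKM in that labelled HBE NC. The others named by this rule were the condensin subunit SMC2 (-2.73), the nuclear pore protein RANBP2 (-2.71), KCNQ1OT1 (-2.66), the oligosaccharyltransferase STT3B (-2.64), the centromere protein CENPF (-2.59), the DNA repair kinase PRKDC (-2.54) and the antioxidant genes GCLC, UGDH and TXNRD1, which are described with their list.

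Gene lists were read next, each by the kept members called higher or lower and some also by the median log2 fold. These are set beside 25.3%, 19% and 0.21 for all kept genes. No list is singled out by these counts. Of the 33 lists with 4 or more kept members, 18 stayed on the same side of the median of all kept genes under each of 13 other ways of processing. The keratins and the gelsolin family changed side with GC and length trends removed, immediate early genes also with the GC trend alone removed, and ribosomal protein and oxidative phosphorylation genes at 1000 summed reads or 10 CPM. Least stable were replication-dependent histone genes, on the same side in 8 of 13, and hypoxia and glycolysis genes, in 9. Junction, hemidesmosome, basal regulator, cholesterol, integrated stress response, translation factor, p53 and noncoding RNA lists also changed side under at least 1. The airway epithelium is kept by basal cells, which hold keratins and hemidesmosomes and can turn into squamous or secretory cells. Of 14 keratins kept of 18, 9 were higher and none lower, with a median of 1.22 and a median GC content of 60.5%. KRT17, a keratin of activated basal cells, had 2539 RPKM in the library labelled H1299 FLII and 580.2 RPKM in that labelled HBE NC, a log2 fold of 2.71. KRT6A, which marks stressed keratinocytes, had 5.20 RPKM in the library labelled H1299 FLII and 1.42 RPKM in that labelled HBE NC. KRT14, the partner of KRT5, had 2.33 RPKM in the library labelled H1299 FLII and 2.71 RPKM in that labelled HBE NC, against 47.5 RPKM in HBE knockdown cytosol. KRT14 was thus low in both RNC libraries. Keratin genes have near-identical copies, and how the counting split reads among them was not tested. TP63, the master regulator of basal cells, had 1.26 RPKM in the library labelled H1299 FLII and 1.40 RPKM in that labelled HBE NC, and CDH1, the epithelial cadherin, had 0.868 RPKM in the library labelled H1299 FLII and 2.44 RPKM in that labelled HBE NC. Neither was called. Of 13 basal cell regulators, 5 were higher, among them TRIM29 (2.18), and 1 was lower, the growth factor receptor EGFR (-2.16).

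Among junction genes the shares called were close to those of all kept genes. Of 22 there, 6 were higher, among them the tight junction scaffold TJP3 (3.11) and the cadherin CDH3 (2.17). Another 5 were lower, with TJP1, the paralog of TJP3, at -2.33 and the tight junction protein OCLN at -1.86. TJP3 has 63.2% GC and TJP1 44.8%. Of 10 hemidesmosome and laminin-332 genes 4 were higher, among them LAMB3 (1.79) and ITGB4 (1.41), and 5 lower, among them the linkers DST (-2.24) and PLEC (-1.97) and the integrin ITGA6 (-1.95). ITGA6 and ITGB4 form 1 receptor, and their folds had opposite signs. ITGA6 had 0.746 RPKM in the library labelled H1299 FLII and 4.31 RPKM in that labelled HBE NC, while ITGB4 had 53.7 RPKM in the library labelled H1299 FLII and 30.3 RPKM in that labelled HBE NC.

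Differentiation genes were higher in the library labelled H1299 FLII. Of 9 squamous genes kept of 34, 6 were higher and none lower, with a median of 1.82. S100A9, a calcium-binding alarmin, had 1110 RPKM in the library labelled H1299 FLII and 341.6 RPKM in that labelled HBE NC, and its partner S100A8 had 131 RPKM in the library labelled H1299 FLII and 39.1 RPKM in that labelled HBE NC. Of 12 secretory genes kept of 26, 10 were higher and none lower, with a median of 1.59. LCN2, an iron-scavenging defence protein, had 83.8 RPKM in the library labelled H1299 FLII and 15.1 RPKM in that labelled HBE NC. WFDC2, a protease inhibitor of airway secretions, had 14.3 RPKM in the library labelled H1299 FLII and 2.84 RPKM in that labelled HBE NC. Median GC content was 58.2% for the squamous and 56.6% for the secretory genes.

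**Figure D5:**
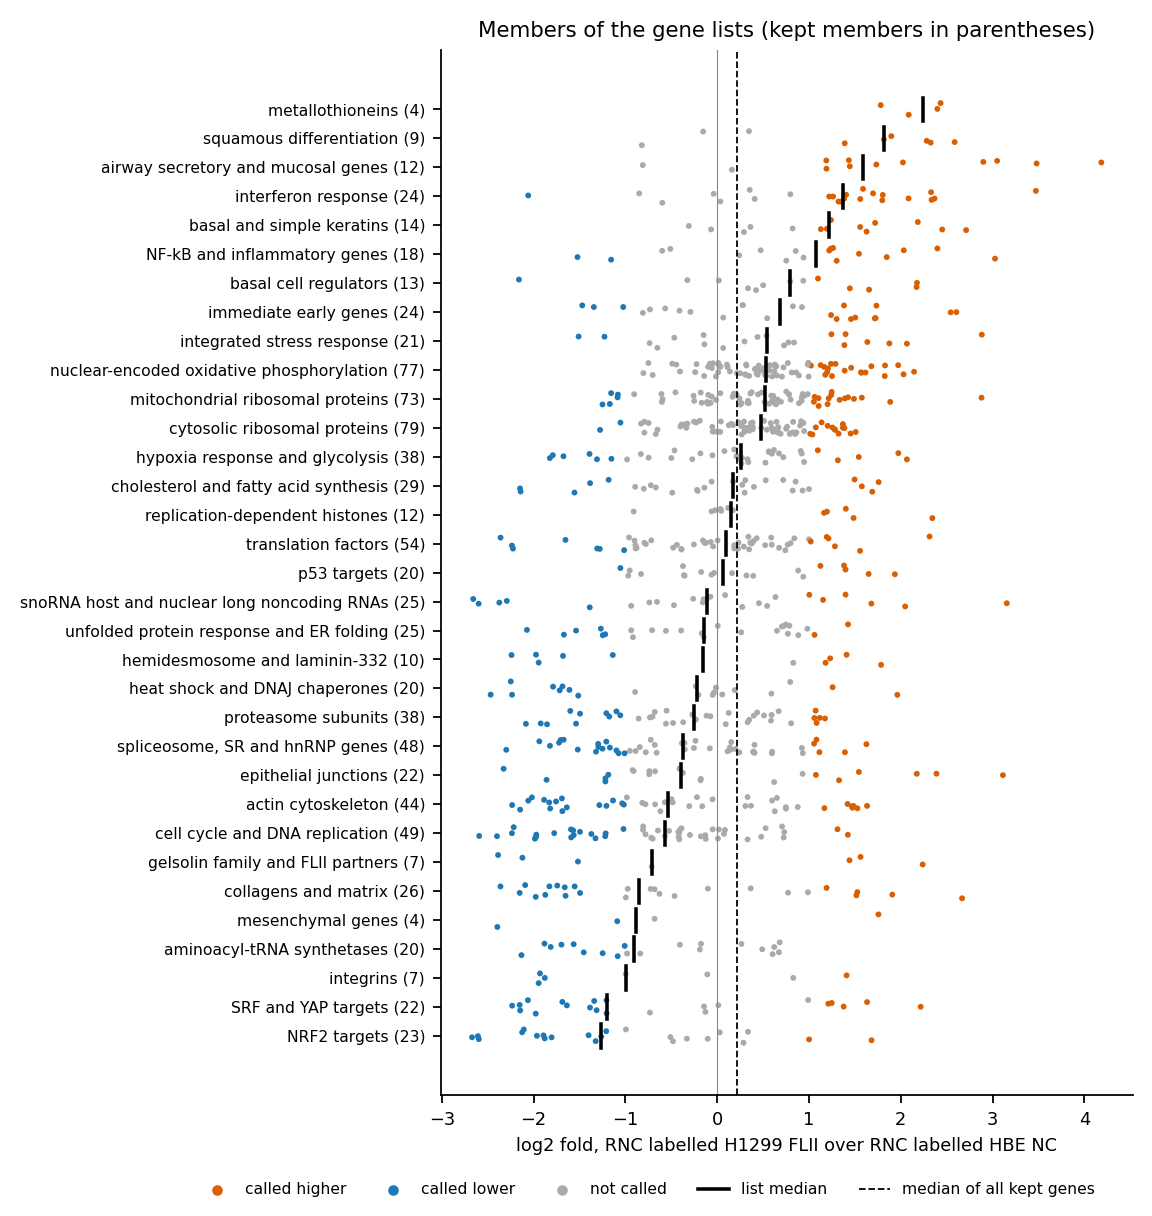
Log2 folds of the library labelled H1299 FLII over that labelled HBE NC for the kept members of each list with 4 or more, with the list's median (bar) and the median of all kept genes (dashed line); colours mark calls. Metallothioneins have the highest median, 2.24, and NRF2 targets the lowest, -1.26.

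Metallothioneins, small cysteine-rich proteins that bind zinc and copper, had the highest median of the lists with 4 or more kept members: 4 of 11 were kept, all 4 were higher, and the median was 2.24 at 59.7% GC. MT2A had 6690 RPKM in the library labelled H1299 FLII and 2357 RPKM in that labelled HBE NC. MT1X had 505 RPKM in the library labelled H1299 FLII and 219.6 RPKM in that labelled HBE NC. MT1E (2.40) and MT1F (2.43) were also higher. HBE cytosol held 20940 RPKM of MT2A in NC, above both RNC libraries, and 502 RPKM of MT1X. MT1M, MT1G and MT1A had 55.7, 44.4 and 24.3 RPKM in HBE NC cytosol but were left out for few RNC reads. Their reads in the libraries labelled H1299 FLII and HBE NC were 1 and 1 (MT1M), 8 and 1 (MT1G), and 2 and 26 (MT1A). Metallothionein genes are close paralogs, and how the counting split reads among them was not tested. Metal-responsive transcription factor 1 acts on metallothionein genes through metal response elements, so the promoters of the 2 genes with an entry are shown. Each is the 250 bases before the RefSeq gene start on GRCh38.p14, in lower case with matches to the core TGCACNC or TGCGCNC on either strand in capitals, for MT2A at chr16:56608334-56608583 and for MT1X at chr16:56682220-56682469, both on the plus strand.
MT2A: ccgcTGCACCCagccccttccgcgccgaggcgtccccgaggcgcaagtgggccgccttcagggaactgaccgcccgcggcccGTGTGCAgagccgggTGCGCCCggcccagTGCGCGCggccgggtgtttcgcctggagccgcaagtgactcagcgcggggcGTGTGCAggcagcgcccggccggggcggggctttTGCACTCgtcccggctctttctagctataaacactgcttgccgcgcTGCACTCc
MT1X: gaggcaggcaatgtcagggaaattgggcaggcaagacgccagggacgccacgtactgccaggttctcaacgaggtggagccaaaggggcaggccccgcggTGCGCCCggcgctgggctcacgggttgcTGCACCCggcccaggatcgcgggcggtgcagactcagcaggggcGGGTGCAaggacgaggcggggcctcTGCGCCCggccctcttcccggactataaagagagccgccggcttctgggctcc
MT2A holds 7 matches and MT1X 4. A match is common: 24.8% of 35116 RefSeq promoters and 34.7% of 7238 promoters of kept genes hold at least 1. Matches are letters and no evidence of binding in these cells.

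Genes of the interferon response, which protect cells against viruses and present antigens, were also higher. Of 24 kept of 41, 16 were higher and 1 lower, with a median of 1.37 at 54.8% GC. IFITM3, a membrane protein that blocks viral entry, had 7323 RPKM in the library labelled H1299 FLII and 2124 RPKM in that labelled HBE NC. IFITM1 had 1024 RPKM in the library labelled H1299 FLII and 305 RPKM in that labelled HBE NC, and IFITM2 had a log2 fold of 2.33. IFI6, an interferon-induced mitochondrial protein, had 28.8 RPKM in the library labelled H1299 FLII and 3.87 RPKM in that labelled HBE NC, the highest fold of the list at 3.47. The antigen-presenting HLA-E was at 2.08. The list's median over HBE NC cytosol was 0.79 in the library labelled H1299 FLII and -0.13 in that labelled HBE NC. Such genes are bound by interferon-regulated factors at the interferon-stimulated response element, and the promoters of IFITM3 and IFI6 are shown in the same way. Capitals mark GAAANNGAAA on either strand, which overlaps the sites of interferon regulatory factors, in the windows chr11:320861-321110 for IFITM3 and chr1:27672193-27672442 for IFI6, both on the minus strand.
IFITM3: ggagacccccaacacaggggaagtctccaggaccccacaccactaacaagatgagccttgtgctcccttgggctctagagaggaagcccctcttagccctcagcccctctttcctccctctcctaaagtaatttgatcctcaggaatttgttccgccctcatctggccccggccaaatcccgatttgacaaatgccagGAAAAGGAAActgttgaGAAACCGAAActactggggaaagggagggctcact
IFI6: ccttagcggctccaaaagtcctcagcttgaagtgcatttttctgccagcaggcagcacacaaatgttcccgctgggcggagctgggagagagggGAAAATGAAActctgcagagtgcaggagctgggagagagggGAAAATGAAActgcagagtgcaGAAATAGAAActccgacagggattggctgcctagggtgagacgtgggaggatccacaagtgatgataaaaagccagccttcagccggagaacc
IFI6 holds 3 matches and IFITM3 2. Of the 24 kept members 19 had a promoter entry and 10 of those held a match, beside 3.02% of all RefSeq promoters and 2.04% of those of kept genes. IFITM genes are near-identical neighbours, and how the counting split reads among them was not tested.

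NRF2 targets, the genes of glutathione, thioredoxin and detoxification that answer oxidative stress, had the lowest median of these lists. Of 23 kept of 26, 2 were higher and 13 lower, with a median of -1.26 at 50.1% GC. TXNRD1, the thioredoxin reductase, had 5.40 RPKM in the library labelled H1299 FLII and 48.9 RPKM in that labelled HBE NC. GCLC, the rate-limiting enzyme of glutathione synthesis, had 1.23 RPKM in the library labelled H1299 FLII and 11.8 RPKM in that labelled HBE NC. AKR1C3, an aldo-keto reductase, had 55.7 RPKM in the library labelled H1299 FLII and 359.0 RPKM in that labelled HBE NC. UGDH (-2.61), which makes UDP-glucuronate, the glutathione reductase GSR (-2.12) and the transporter ABCC3 (-1.96) were also lower. Over HBE NC cytosol the list's median was 1.01 in the library labelled H1299 FLII and 2.29 in that labelled HBE NC, so these RNAs were above the cytosol in both and further in that labelled HBE NC. The RNC-only gene ALDH1A1 and the line marker VIM moved the same way; their part in the result was not tested. NRF2 binds antioxidant response elements, so the TXNRD1 promoter is shown, at chr12:104215529-104215778 on the plus strand, with the core TGACNNNGC on either strand in capitals; the core overlaps the site of AP-1 factors.
TXNRD1: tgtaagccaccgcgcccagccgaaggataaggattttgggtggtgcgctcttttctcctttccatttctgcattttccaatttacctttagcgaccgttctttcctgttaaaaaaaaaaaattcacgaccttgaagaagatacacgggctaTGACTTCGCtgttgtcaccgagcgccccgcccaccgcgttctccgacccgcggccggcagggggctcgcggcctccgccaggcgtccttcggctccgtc
It holds 1 match. Of 23 kept members 17 had an entry and 5 of those held a match, beside 10.9% of all RefSeq promoters and 12.5% of those of kept genes.

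The gelsolin family and the partners of FLII are its closest relatives by function. Of 7 kept of 11, 3 were higher and 3 lower besides the uncalled LRRFIP2, at -0.71. GSN, gelsolin itself, which cuts and caps actin filaments, had 154.8 RPKM in the library labelled H1299 FLII and 49.1 RPKM in that labelled HBE NC, a log2 fold of 2.24. CAPG, which caps filaments without cutting them, was at 1.56, and the arginine methyltransferase CARM1, which works with FLII in nuclear receptor coactivation, was at 1.44. Lower beside FLII were the coactivator NCOA3, with 0.896 RPKM in the library labelled H1299 FLII and 7.02 RPKM in that labelled HBE NC, and the FLII-binding protein LRRFIP1 (-1.52). In the wider actin list 7 of 44 were higher and 16 lower, with a median of -0.53. The filament crosslinker ACTN4 (-2.02) and the tropomyosin TPM2 (-2.23) were lower. ACTN4 had 42.0 RPKM in the library labelled H1299 FLII and 255 RPKM in that labelled HBE NC.

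Contractile, matrix and mesenchymal genes leaned to the library labelled HBE NC. Serum response factor and YAP switch on many genes of the contractile and adhesive machinery. Of 22 of their targets kept of 27, 5 were higher and 12 lower, with a median of -1.21. THBS1 (-2.15), VCL (-2.15) and CALD1 (-2.06) were lower, and CNN2 (2.22) was higher. Of 26 matrix genes 5 were higher and 11 lower, with a median of -0.85, among them LAMB1 at -2.36 and the collagen COL18A1 at -2.09, while the membrane protease MMP14 was at 2.67. Of 7 integrins 1 was higher and 3 lower, with ITGB1 at -1.93. Of the 4 mesenchymal genes kept, VIM (-2.40) and S100A4 (-1.09) were lower and LGALS1 (1.76) higher. The summed H1299 markers are 58.1 CPM in the library labelled H1299 FLII and 456 CPM in that labelled HBE NC, and their part in these lists was not tested. TPM1, which is high in H1299, was at -1.69.

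Signalling and stress lists differed among themselves. Of 18 inflammatory genes 9 were higher and 2 lower, with a median of 1.08. IL1RN, the interleukin-1 receptor antagonist, had 13.3 RPKM in the library labelled H1299 FLII and 2.43 RPKM in that labelled HBE NC, ICAM1 was at 2.40, and the chemokine IL8 was lower at -1.52. Of 24 immediate early genes 10 were higher and 3 lower, with a median of 0.68. The AP-1 subunits JUNB (2.60), FOS (2.54) and JUND (1.72) were higher, and JUN (-1.47) was lower. The AP-1 subunits FOSL1 (0.82), FOSL2 (-0.29) and FOSB (-0.41) were not called. JUNB had 747 RPKM in the library labelled H1299 FLII and 184 RPKM in that labelled HBE NC. Of 21 integrated stress response genes 7 were higher and 2 lower. CEBPB, a factor of that response, had 617 RPKM in the library labelled H1299 FLII and 125 RPKM in that labelled HBE NC, and ATF4, its central factor, was at 1.88. Of 38 hypoxia and glycolysis genes 5 were higher and 6 lower, with a median of 0.26 close to that of all genes. DDIT4 (2.07) and GAPDH (1.54) were higher and ERO1L (-1.82), PFKFB3 (-1.79) and KDM3A (-1.68) lower. Of 20 p53 targets 5 were higher, led by BBC3 (1.94) and the cell cycle inhibitor CDKN1A (1.65), and FAS (-1.06) was lower.

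Folding, degradation and charging of transfer RNA leaned lower. Of 20 aminoacyl-tRNA synthetases none was higher and 9 were lower, with a median of -0.91 at 48.6% GC. EPRS, which charges glutamate and proline, had 0.880 RPKM in the library labelled H1299 FLII and 5.79 RPKM in that labelled HBE NC. GARS (-1.88) and LARS (-1.81) were also lower. Of 20 chaperones 2 were higher, among them the small heat shock protein HSPB1 (1.96), and 8 lower, led by HSPH1 (-2.47), HSPA4 (-2.25) and HSP90AA1 (-2.23). Of 25 genes of the unfolded protein response 2 were higher, among them its factor XBP1 (1.43), and 6 lower, among them HSP90B1 (-2.07) and the lumenal chaperone HSPA5 (-1.67). Of 38 proteasome subunits 5 were higher and 10 lower, with PSME4 at -2.08 and PSMA4 at -1.92. Of 49 cell cycle genes 2 were higher and 18 lower, with CENPF at -2.59, the proliferation marker MKI67 at -2.40 and TOP2A at -1.99. Of 48 splicing genes 5 were higher and 16 lower, with SF3B1 at -2.30 and HNRNPR at -1.94. Of 29 genes of cholesterol and fatty acid synthesis 4 were higher and 5 lower, with HMGCS1 at -2.15 and SREBF2 at 1.76.

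Ribosomal and respiration genes had medians just above that of all genes, and translation factors one just below. Of 79 ribosomal protein genes 14 were higher and 2 lower, with a median of 0.48, and RPL32 was at 1.51. These genes took 25.9% of the reads labelled H1299 FLII and 30.9% of those labelled HBE NC, so their share of the library was lower in the library labelled H1299 FLII although their TMM-scaled median was higher. Of 54 translation factors 6 were higher and 7 lower, with a median of 0.09. EEF2, the elongation factor that moves the ribosome along, had 2769 RPKM in the library labelled H1299 FLII and 834 RPKM in that labelled HBE NC, while the initiation factors EIF4G3 (-2.36), EIF5B (-2.24) and EIF3A (-2.23) were lower. Of 73 mitochondrial ribosomal proteins 15 were higher and 5 lower, with MRPL34 at 2.88. Of 77 nuclear-encoded genes of oxidative phosphorylation 20 were higher and none lower, with a median of 0.53, and the respiratory subunit COX6A1 had 2074 RPKM in the library labelled H1299 FLII and 702 RPKM in that labelled HBE NC. Of 12 replication-dependent histone genes 5 were higher, led by HIST1H1C (2.34). Among 25 small nucleolar RNA hosts and nuclear long noncoding RNAs 6 were higher and 5 lower: the imprinted H19 had 952 RPKM in the library labelled H1299 FLII and 160.1 RPKM in that labelled HBE NC, and DANCR was at 2.05, while NEAT1 was at -2.37 and MEG3 at -2.29.

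Since FLII was low in the library labelled H1299 FLII, its folds are set beside those of FLII knockdown over NC in HBE mRNA, cytosol and nucleus, which share no library with the RNC pair. FLII itself was at -2.58, -2.94 and -2.98 in the knockdown mRNA, cytosol and nuclear pairs and at -2.12 in the RNC pair. In the mRNA pair 2.02% of the genes tested were called higher and 2.93% lower, in the cytosol pair 0.625% each way, and in the nuclear pair 0.55% higher and 0.323% lower. In all 3 pairs together 2 genes were called higher and 5 lower. PRRT3, a proline-rich membrane protein, was at 1.43, 1.22 and 1.56 in the mRNA, cytosol and nuclear pairs and at 1.26 in the RNC pair. S100P, a calcium-binding protein, was at -2.24, -1.11 and -1.30 in the knockdown pairs and at -0.24 in the RNC pair, where it was not called. MNX1, a homeobox factor, was lower in all 3 knockdown pairs and was at 0.02 in the RNC pair. VILL (3.33 in the RNC pair), BPIFA1 (2.96) and CLIC4 (-1.78) did not pass the filter on HBE cytosol. BPIFA1 was lower in the knockdown pairs and higher in the RNC pair. VILL was higher in the knockdown pairs and in the RNC pair, and CLIC4 was lower in both.

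Across genes, the RNC folds had a Spearman correlation of -0.265 with the mRNA knockdown folds (n = 9655), of 0.149 with the cytosol folds (n = 9706) and of 0.039 with the nuclear folds (n = 9686). Of the kept genes, 1.13% were called higher and 2.21% lower in the knockdown mRNA pair, 0.227% and 0.247% in the cytosol pair, and 0.258% and 0.103% in the nuclear pair. Of those 213 lower genes, 107 (50.2%) were higher in the RNC pair and 14 (6.57%) lower, beside 25.3% and 19% of all kept genes. Their median GC content was 58.2%, a class in which 44.2% of genes were higher in the RNC pair. The 24 genes lower in the cytosol pair held 1 that was higher and 11 that were lower in the RNC pair, at a median GC of 47.5%, in a class where 11.4% were higher and 23.5% lower. Of the 109 genes higher in the mRNA pair 21 were higher and 27 lower in the RNC pair, and of the 22 higher in the cytosol pair 5 were higher and 7 lower. Of the 25 genes higher in the nuclear pair 12 were higher and 2 lower, at a median GC of 58.6%, and of the 10 lower there 2 were higher and 2 lower. Of the lists, hypoxia and glycolysis held the most genes lower in the knockdown mRNA pair, 20 of its 38, with none lower in the cytosol or nuclear pair. In the RNC pair 6 of its genes were lower and 5 higher. Its RNC median was 0.26, beside 0.21 for all kept genes. Beside FLII, 1 gene, PRRT3, was called in the same direction in the RNC pair and in all 3 knockdown pairs among the kept genes. Of the genes left out by the filter on HBE cytosol, VILL and CLIC4 were also called in the same direction, and BPIFA1 in the opposite one.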

How the data were processed

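RNA was measured in 16 libraries, and groups were taken from the labels' titles. The deposited files list, per the file headers, the read count, RPKM and length of 23709 RefSeq genes. The deposited read counts are whole numbers, and the deposited RPKM equals the count scaled to length and library total within 5.45e-05%. The submitters' processing notes name GRCh37 and hg19, and the sources used here do not give the aligner, the counting tool or its use of strand. No date, batch or replicate number is given in the labels.

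Counts of the RNC libraries were scaled with TMM over all genes by edgeR 4.0.16 in R 4.3.3, with 0.5 reads added, and exact conditional binomial (Clopper-Pearson) 95% intervals were made with scipy 1.17.1. Counting error is all that these intervals cover, since PCR duplicates are hidden in counts. Knockdown pairs were compared likewise, over genes with 20 or more summed reads. GC content was read from GENCODE transcripts by RefSeq accession, and promoter sequences are RefSeq's on GRCh38.p14, cut to 250 bases; deposited coordinates were not used. The GC and length trends were removed with lowess. The procedure was tested on simulated counts.

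Named genes are FLII and the markers, then the 15 genes in each direction with the interval bound farthest from 0 among called genes with 200 or more summed reads and under 8 times HBE in H1299, the genes called the same way in the RNC pair and all 3 knockdown pairs, up to 6 called members per list, and the 6 genes of highest CPM in the RNC library labelled HBE NC among those 8 times or more above HBE in H1299. Genes named as outside this rule, at the edges of the filter, as most abundant, as lower than FLII over the cytosol, or among those seen in RNC alone were chosen after their values were seen. So were the AP-1 subunits JUN, FOSB, FOSL1 and FOSL2 and the metallothioneins MT1A, MT1G and MT1M. The members and the 37 gene lists were chosen with earlier results of these data known. Some genes that the rule names are not reported here. Of 1188 list memberships, 1180 were found in the files.

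Alternatives were scaling by total counts, by DESeq2 1.42.0's median of ratios and by TMM over other gene sets, other filters, 5 reads added, RPKM in place of counts, and removed trends of GC content and length.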

Additional observations from a re-analysis of the deposited data

How the results depend on the processing

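FLII was called lower under each of the 13 alternatives, with log2 folds from -3.60 to -1.98. By total counts 1032 genes were higher and 3190 lower at a median of -0.37, and with deposited RPKM 780 were higher at a median of -0.29. The median was 0.35 by the median of ratios and -0.084 by TMM from the kept genes. With 20 summed reads and no CPM minimum 4139 were lower at a median of -0.13, with 1000 summed reads 672 were lower at 0.565, and with 10 CPM in both HBE cytosol libraries 517 were lower at 0.573. Of the alternatives chosen after seeing the data, removing the GC trend left 973 lower and removing the GC and length trends 757. Setting the median of the HBE-typical genes to 0 gave 189 higher and 5668 lower at a median of -1.27. The number of lists on their side of the median stayed within 1.5 times under each alternative.

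Of 142 named genes kept, no called one changed sign under the 10 alternatives other than those chosen after seeing the data, among those each alternative held: 113 at 1000 summed reads, 92 at 10 CPM, 94 without genes 8 times apart between the lines and all 142 under the other 7. Some results changed in strength. With deposited RPKM 16 were weaker and 1 stronger, and by total counts 9 were weaker and 3 stronger. Of 139 genes, 17 were weaker and 2 stronger with the GC trend removed. With GC and length trends removed 34 were weaker and 3 stronger. With the HBE-typical genes at 0, 34 of 142 were weaker and 8 stronger. FAS was at 0.026 with the GC trend removed. With GC and length trends removed RPS2 was at -0.02, DST at 0.098 and KCNQ1OT1 at 0.855. With the HBE-typical genes at 0, RPS2 was at -0.44, CDH5 at -0.14, ITGB4 at -0.067, CARM1 at -0.035, XBP1 at -0.051 and PRRT3 at -0.21. The cause was not tested. No paired analysis was possible because each group holds 1 library, and for the same reason no library could be left out. Counts of 2 to 22 reads, as for CTAG2 and BPIFB1, limit the precision of single genes.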
